A study of Mus musculus with 14 samples.

Results

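Germinal center and memory B cells were set against naive B cells and plasma cells to describe the genes on which both subsets of 1 side lay beyond both subsets of the other. The first side held 7 arrays (3 of germinal center and 4 of memory cells) and the second 7 (3 of naive and 4 of plasma cells), together the 14 arrays of the series. A gene was a member where the mean log2 intensities of both subsets of a side lay above, or both below, those of the other side. By this rule 4345 of 18193 genes were members, 1856 of them higher in germinal center and memory cells and 2489 lower. The order of the means asks for no minimum difference, so each member was also tested, as described below.

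RNA was amplified from splenic B cells of C57Bl/Ka males, purified by flow cytometry, and hybridised to Affymetrix arrays. Each sort left out T cells and CD5+ cells (CD3, CD4, CD8, CD5), myeloid cells (CD11b, Gr-1) and erythroid cells (Ter119). Naive cells came from unimmunized mice 4 to 8 weeks old and were B220+, CD23+, IgM-low, IgD+ and Ig lambda+. The other 3 subsets bound the hapten NP and came from mice given NP-CGG in alum into the peritoneum. Plasma cells, syndecan-1+, PNA-negative and Ig lambda+ with low B220 and low IgM, were taken at day 7 from mice aged 5 to 9 weeks. Germinal center cells, B220+, IgM-low or negative, Ig lambda-low, CD38-low and PNA+, were taken at day 14 at an age of 6 to 10 weeks. Memory cells, B220+, IgM-negative, IgD-negative, CD38-high, Ig lambda+ and PNA-negative, were taken 10 to 12 weeks after immunization, at 14 to 18 weeks of age. The dose was 100 µg, except that the label of plasma replicate 1 gives none. Time after immunization differed between the immunized subsets. Age ranges overlapped between naive, plasma and germinal center cells, while memory cells came from older mice. Time, age and subset thus cannot be told apart. Whether replicates were separate animals is not stated, so a p-value here reflects the spread among the arrays of a subset, possibly technical.

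In a germinal center, B cells divide, mutate their antibody genes and are selected by help from T cells. Memory cells are long-lived cells that no longer divide, keep the selected receptor and can respond fast to the same antigen, while plasma cells secrete antibody and leave the B cell program. Many memory cells descend from the germinal center. What both share against naive cells, and do not share with plasma cells, is described here. Whether it was kept from the germinal center was not tested.

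The subsets carried their defining transcripts. Bcl6, the repressor that directs germinal centers, had a mean intensity of 2534 in germinal center cells, 1410 in naive, 391 in memory and 10.4 in plasma cells. The sphingosine 1-phosphate receptor gene S1pr2 was brightest in germinal center cells (723), the plasma cell regulator gene Prdm1 in plasma cells (521 against 10.9 to 20.2 elsewhere), and Cd80 and Pdcd1lg2 in memory cells (67.0 and 103). The B cell gene Ms4a1 was above background on all 14 arrays. Another B cell gene, Cd79a, was dim, at 27.2 to 33.5 in naive and 15.8 to 25.8 in germinal center cells. It read 16.4 to 32.1 in memory and 11.6 to 14.9 in plasma cells, where it was above background on only 2 arrays. Background was set for each array by its brightest unspiked bacterial control (27 probe sets), 10.96 to 16.1, and 52.7% to 66.9% of genes lay above it. The ratio of actin signal at the 3′ end to the middle of the transcript was 6.11 to 17.6 in germinal center cells, 5.47 to 6.91 in plasma, 4.39 to 5.30 in naive and 4.15 to 5.33 in memory cells. The same ratio for Gapdh put the subsets in another order. Its mean was 11.97 in memory, 10.62 in naive, 9.4 in germinal center and 6.91 in plasma cells. Arrays of subsets next to each other in this order overlapped. The part of the actin ratio in the results was tested only by adding it as a covariate. That of the Gapdh ratio was not tested.

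Germinal center and memory cells shared a small set of genes that stood apart from both other subsets. Ranked by the smallest of their 4 differences, Nt5e (CD73), the LIM domain gene Lmo7, the mucin-like gene Parm1, the lipid receptor gene S1pr3, the receptor kinase gene Bmpr1a, the chemokine scavenger gene Ackr2 and the costimulatory ligand gene Cd86 came first among the higher genes, each at least 6-fold above naive and plasma cells by subset means. Sdc1, Itm2a and Ggh were each at least 6-fold below them. A gene was called where germinal center minus naive, germinal center minus plasma, memory minus naive and memory minus plasma all had 1 sign and the largest of the 4 p-values passed after Benjamini-Hochberg adjustment over all 18193 genes (limma, adjusted p under 0.05). This gave 20 genes higher in germinal center and memory cells (0.11% of all genes) and 14 lower (0.077%). Members by the order of means were 10.2% and 13.7% of all genes, and most were separated by little: the median smallest of the 4 differences was 0.08 on the log2 scale for the higher members and -0.11 for the lower. Only 58 higher and 36 lower members had a smallest difference of at least 1, and 488 and 532 lay above background on no array. The average contrast, the mean of germinal center and memory minus the mean of naive and plasma, called 1603 genes higher (8.81%) and 1877 lower (10.3%). It can pass through 1 subset alone: 608 of its higher and 1016 of its lower genes were members by the order of means. On 113 genes (0.621%) all 7 germinal center and memory arrays lay above all 7 others, and on 167 (0.918%) all 7 lay below. All 34 called genes were among these. Where each of the 4 differences was called on its own, a looser rule added after the data were seen, 70 genes were higher (0.385%) and 64 lower (0.352%). With the actin ratio as a covariate 10 genes were called higher and 1 lower, and with intensities raised to a floor of 16 the counts were 12 and 8. Of the 34, 11 were called with the actin covariate and under each of the 27 alternatives: Nt5e, Lmo7, Parm1, S1pr3, Bmpr1a, Ackr2, Cd86, Pawr, Slc41a2 and Stau2 among the higher and Ggh among the lower. The other 23 were not called with the actin covariate, and for some of them further alternatives besides a left-out array ended the call. Not every alternative could remove a call: weighting arrays equally in the average left the 4 differences unchanged, and calling each difference on its own was looser. A bulk array cannot tell fewer cells with a transcript from less of it in each cell.

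**Figure D1:**
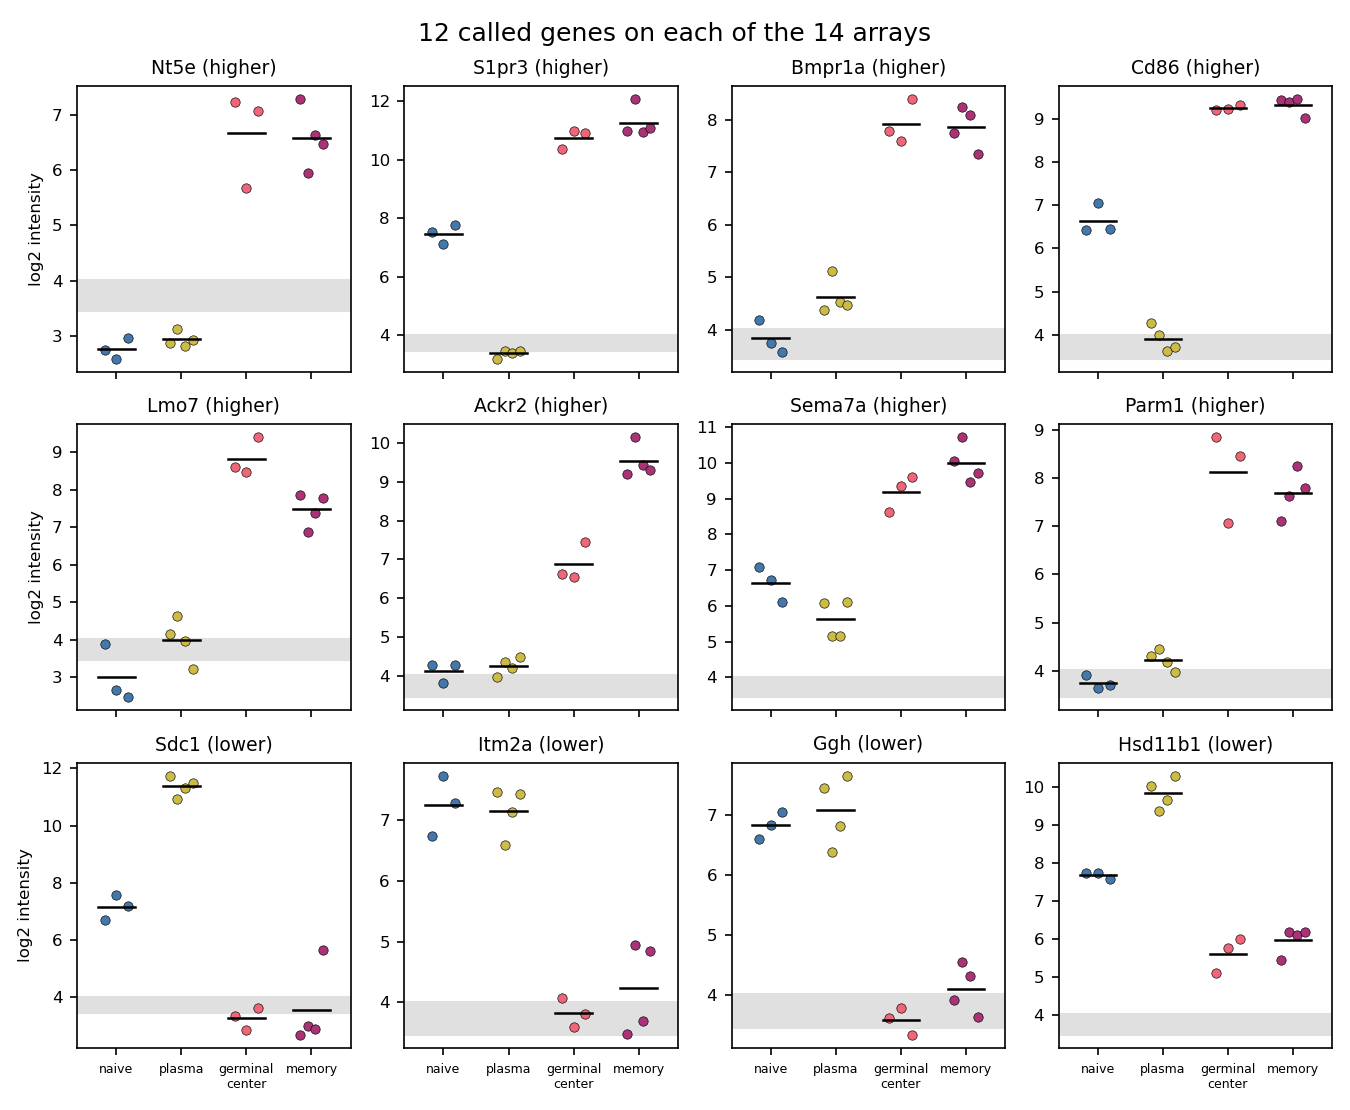
Log2 intensity of 12 called genes (vertical axis) on each array of the 4 subsets (horizontal axis). Points are arrays, bars are subset means, and the grey band spans the background of the 14 arrays. In each of the first 8 panels every germinal center and memory array lies above every naive and plasma array, while in the last 4 panels the order is the reverse. Sdc1 and Hsd11b1 are brighter in plasma than in naive cells, and S1pr3 and Cd86 brighter in naive than in plasma cells.

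Nt5e encodes CD73, the ectoenzyme that makes adenosine from AMP at the cell surface. Its intensity was 151, 51.2 and 133 on the germinal center arrays and 156, 61.8, 98.6 and 88.0 on the memory arrays. It was 6.71, 6.04 and 7.80 on the naive arrays and 7.31, 8.80, 7.07 and 7.61 on the plasma arrays, where it lay above background on none. Nt5e was thus above background in germinal center and memory cells alone, and the 2 sides did not overlap. Against the background of the naive arrays it was at least 7.78-fold higher in germinal center and at least 7.36-fold higher in memory cells, and against plasma cells at least 7.35-fold and 6.96-fold. The largest of its 4 p-values was 0.000149 after adjustment (limma). The 2 other probe sets of Nt5e, both near background, did not have this order.

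S1pr3 encodes a receptor for sphingosine 1-phosphate, the lipid that guides lymphocytes between tissue and blood. It read 1341, 2045 and 1928 in germinal center cells and 2017, 4347, 2006 and 2162 in memory cells. Naive cells gave 185, 139 and 221, and plasma cells 9.20, 11.01, 10.4 and 11, never above background. The 2 upper subsets were close together, naive cells formed a middle step and plasma cells were at background. S1pr3 was 9.76-fold and 13.9-fold higher in germinal center and memory cells than in naive cells, and at least 127-fold and 181-fold higher than in plasma cells (adjusted p for all 4 = 6.75e-05, limma). Its average contrast of 5.59 ± 0.18 (log2 ± SE, n = 7 and 7 arrays, limma) was the largest among the 20 genes called higher. Another probe set of S1pr3 had the same order, with an average contrast of only 0.92. A further one did not have it (0.01), and neither was called. S1pr2, the related receptor that holds cells in germinal centers, was no member: its mean was 723 in germinal center but 56.5 in memory cells, below the 97.3 of plasma cells.

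Bmpr1a encodes a type I receptor kinase for bone morphogenetic proteins. Germinal center arrays read 220, 193 and 337 and memory arrays 214, 302, 272 and 164. Naive arrays read 18.3, 13.4 and 11.9 and plasma arrays 20.9, 34.8, 23.0 and 22.2. Germinal center and memory cells overlapped each other and lay clear of both others. The folds over naive cells, above background on 2 of 3 arrays, were 17.0 and 16.2 and over plasma cells 9.84 and 9.38 (adjusted p = 4.08e-05, limma). The 5 other probe sets of Bmpr1a had the same order, and 1 of them was itself called.

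Ackr2 encodes an atypical chemokine receptor that takes up and degrades inflammatory CC chemokines without signalling through G proteins. It read 98.0, 94.3 and 175 in germinal center and 594, 1135, 691 and 639 in memory cells. In naive cells it read 19.4, 14.1 and 19.5 and in plasma cells 15.6, 20.5, 18.5 and 22.4. Memory cells stood highest, germinal center cells between, and naive and plasma cells overlapped near background. The folds in memory cells were 42.3 over naive and 38.7 over plasma cells, those in germinal center cells 6.72 and 6.16 (adjusted p = 0.000235, limma). The 2 other probe sets of Ackr2 did not show this order.

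The bases before the transcription starts of Nt5e and S1pr3 are given as RefSeq holds them, since these genes are higher members with signal at background in 1 or both other subsets. Both lie on the plus strand of GRCm38.p6, at chr9:88327359-88327608 and chr13:51408368-51408617, and end 1 base before the start.
Nt5e: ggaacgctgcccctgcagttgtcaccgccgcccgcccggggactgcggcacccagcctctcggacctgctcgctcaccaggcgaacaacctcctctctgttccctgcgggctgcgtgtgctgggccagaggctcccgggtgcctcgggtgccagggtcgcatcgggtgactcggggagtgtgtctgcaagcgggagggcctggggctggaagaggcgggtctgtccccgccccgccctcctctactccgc
S1pr3: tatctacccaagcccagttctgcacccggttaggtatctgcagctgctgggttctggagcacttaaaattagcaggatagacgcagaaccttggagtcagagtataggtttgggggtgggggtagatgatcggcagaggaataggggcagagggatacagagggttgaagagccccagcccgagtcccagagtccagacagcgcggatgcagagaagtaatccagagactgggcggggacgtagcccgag
Capitals were kept for matches to 5 short motifs of B cell factors described with the lower genes, and neither stretch held one. C and G made up 72.0% of the Nt5e stretch and 56.4% of that of S1pr3.

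Cd86, the ligand through which B cells costimulate T cells via CD28, read 585, 597 and 640 in germinal center and 691, 664, 701 and 516 in memory cells. Naive cells gave 85.9, 133 and 86.8 and plasma cells 19.4, 16.1, 12.3 and 13.2. The upper subsets overlapped and lay above every naive array, which in turn lay above every plasma array. Cd86 was 6.09-fold and 6.40-fold higher than in naive cells and 40.4-fold and 42.5-fold higher than in plasma cells, which lay above background on 2 of 4 arrays (adjusted p = 4.08e-05, limma), and its second probe set was called too. Cd80, the other B7 ligand, was a member by order only: its means were 67.0 in memory cells and 11.7, 9.85 and 8.86 in germinal center, plasma and naive cells.

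Sema7a, a membrane-anchored semaphorin that binds integrins, read 393, 657 and 775 in germinal center and 1059, 1674, 704 and 832 in memory cells. It read 135, 106 and 69.5 in naive and 67.3, 35.6, 35.7 and 68.6 in plasma cells. The lowest germinal center array was thus still above the highest naive array, and the folds over naive cells were 5.85 and 10.1. Its call (adjusted p = 0.00907, limma) was lost without naive array 3 (0.0632) or germinal center array 3 (0.0502). Parm1, a mucin-like membrane protein gene, read 462, 134 and 351 in germinal center and 138, 198, 305 and 222 in memory cells. On the naive arrays it read 15.1, 12.4 and 12.97 and on the plasma arrays 19.7, 21.9, 18.1 and 15.7. Its 2 upper subsets overlapped, 11.1-fold to 20.8-fold above the others by subset means, with naive cells above background on 2 of 3 arrays, and its second probe set was also called. Havcr1, which encodes TIM-1, a receptor for phosphatidylserine, read 239, 124 and 289 in germinal center and 68.9, 52.2, 48.1 and 53.4 in memory cells, against 13.2 to 14.9 in naive and 13 to 24.8 in plasma cells. Its germinal center arrays all lay above its memory arrays. Cd59a, which blocks the membrane attack complex of complement, read 74.4 to 146 in germinal center and 119 to 138 in memory cells and 21.3 to 46.8 on the 7 other arrays. Its call (adjusted p = 0.00907, limma) was lost without naive array 1 (0.0527). The other probe sets of Sema7a, Havcr1 and Cd59a did not have the order of subset means, with average contrasts of 0.05, 0.4 and 0.11. In no subset were they above background on every array.

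Lmo7, a LIM domain protein gene linked to actin and cell junctions, read 391, 356 and 670 in germinal center and 232, 117, 167 and 220 in memory cells. It read 14.8, 6.35 and 5.57 in naive and 17.9, 24.7, 15.6 and 9.37 in plasma cells. Its 2 sides did not overlap, and every germinal center array lay above every memory array. Naive cells were above background on 1 of 3 arrays. Pawr, a promoter of apoptosis, read 376, 652 and 683 in germinal center, 412, 184, 234 and 240 in memory, 44.2 to 78.4 in plasma and 9.37 to 18.9 in naive cells. Slc41a2, a magnesium transporter gene, read 747, 617 and 564 in germinal center and 270, 146, 193 and 207 in memory cells, against 53.0 to 54.3 in naive and 32.0 to 42.7 in plasma cells. Stau2, which binds and moves RNA, read 245, 271 and 430 in germinal center and 114, 210, 113 and 97.5 in memory cells and 28.4 to 40.2 elsewhere. By subset means these 4 genes shared an order, with germinal center above memory cells and memory above both others. Pvt1, the long noncoding RNA gene beside Myc, read 926, 629 and 691 in germinal center and 682, 899, 685 and 549 in memory cells, against 151 to 295 in naive and 91.7 to 156 in plasma cells. Its upper subsets overlapped, and its call (adjusted p = 0.0104, limma) was lost without naive array 2 (0.0615). Pvt1 was also lost with median centring (0.0549), a floor of 16 (0.0712) and array weights (0.0744). The same held for the mean over its probe sets (0.239) and the actin covariate (0.42, limma).

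The other 6 called genes that were higher had average contrasts from 1.54 for Abca3 to 2.74 for Ccdc122. Ccdc122, a coiled-coil protein gene, had means of 115 and 90.7 against 19.9 and 11.7, and its call (adjusted p = 0.00888, limma) was lost without naive array 1 (0.0575) or 2 (0.0615). The unnamed transcript C430042M11Rik rose by 2.03 ± 0.19, from subset means of 23.8 and 32.7 to 127 and 103. Sbf2, a pseudophosphatase of the myotubularin family, had nearly equal means in germinal center and memory cells (545 and 509) and in naive and plasma cells (172 and 157). Vps13a, which moves lipids between membranes, had means of 449 and 306 against 126 and 79.6. Tmem131, with a mean of 4894 in germinal center cells, was the closest of these 6 to the threshold (adjusted p = 0.0493, limma). It was lost without any 1 of 12 arrays, all but germinal center arrays 1 and 3 (0.0567 to 0.271). Abca3, a lipid transporter gene, had means of 854 and 1072 against 305 and 354. Its call (adjusted p = 0.0331, limma) was lost without any 1 of 10 arrays, all but naive array 1, plasma array 4 and memory arrays 3 and 4 (0.055 to 0.147).

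The 14 called genes that were lower included the plasma cell marker and several genes whose naive and plasma arrays overlapped. Sdc1 encodes syndecan-1, the antigen on which plasma cells were sorted, so its level there is set by the gate. It read 3435, 1965, 2575 and 2866 in plasma and 103, 190 and 147 in naive cells. Germinal center arrays read 10.2, 7.30 and 12.3, none above background, and memory arrays 6.37, 7.91, 7.39 and 49.9. Naive cells thus carried an intermediate level and only memory array 4 on the other side rose above background. Sdc1 was at least 10.1-fold lower in germinal center than in naive cells. The call (adjusted p = 0.0104, limma) did not survive the removal of naive array 2 (0.0825), naive array 3 (0.0700) or germinal center array 2 (0.0586). Of its 3 other probe sets 1 was called and 1 more had the same order.

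Itm2a, a membrane protein gene, read 107, 213 and 156 in naive and 178, 96.8, 141 and 174 in plasma cells. It read 16.9, 12.0 and 14.0 in germinal center and 11.2, 30.7, 12.9 and 28.6 in memory cells. Naive and plasma cells overlapped and stood 7.60-fold to 10.8-fold above both others by subset means (adjusted p = 0.00141, limma), with germinal center cells above background on 2 of 3 arrays and memory cells on 2 of 4. Its other probe set, also above background, did not have this order, with an average contrast of -0.095 (adjusted p = 0.749, limma). Ggh, which encodes a lysosomal hydrolase that trims the glutamate tail of folates, read 97.0, 113 and 133 in naive and 174, 83.0, 113 and 201 in plasma cells. On the germinal center arrays it read 12.2, 13.8 and 10.1, none above background, and on the memory arrays 15.2, 23.4, 19.9 and 12.4. Its 2 upper subsets overlapped too, and memory cells lay 6.59-fold below naive and 7.82-fold below plasma cells (adjusted p = 0.000382, limma).

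Hsd11b1, the enzyme gene that reactivates glucocorticoids, read 214, 212 and 192 in naive and 1055, 667, 818 and 1267 in plasma cells. It read 34.0, 53.8 and 64.2 in germinal center and 43.9, 72.0, 69.3 and 73.1 in memory cells. Plasma cells were highest, with naive cells between, and the call (adjusted p = 0.00907, limma) was lost without naive array 1 (0.0575) or 2 (0.0609). Tubb2b, a beta tubulin gene, had the same steps, with means of 502 in plasma, 133 in naive, 25.6 in memory and 11.2 in germinal center cells. It was lost without any 1 of 8 arrays (naive 2 and 3, plasma 3 and 4, germinal center 3, memory 1, 2 and 3), with an adjusted p of 0.0386 becoming 0.0617 to 0.226 (limma). Ctsl, the gene of the lysosomal protease cathepsin L, read 38.5 to 59.0 in naive and 37.2 to 63.6 in plasma cells and 10.9 to 18.2 in germinal center and 12.8 to 16.1 in memory cells. Tspan3, a tetraspanin gene, read 37.0 to 77.6 in naive and plasma and 14.1 to 21.8 in germinal center and memory cells. For both, naive and plasma cells overlapped and the sides did not.

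Gpr65, a receptor that senses protons, had means of 231 in plasma, 134 in naive, 66.0 in memory and 22.6 in germinal center cells. Its call (adjusted p = 0.0139, limma) was lost without naive array 1 (0.102) or 3 (0.118) or memory array 1 (0.0523) or 4 (0.0594). Ipcef1, which binds cytohesins, had means of 49.7 and 55.4 in naive and plasma cells against 16.1 in memory and 7.76 in germinal center cells. Its call (adjusted p = 0.0118, limma) was lost without naive array 1 (0.0750) or 3 (0.106). The cap-binding protein gene Eif4e3, the calpain gene Capn5, the poly-ADP-ribose polymerase gene Tiparp, the circadian repressor gene Cry1 and the zinc transporter gene Slc30a4 had average contrasts of -2.52, -2.27, -2.14, -1.51 and -1.21 on the log2 scale (adjusted p = 0.0395, 0.0447, 0.0395, 0.0314 and 0.021, limma). These 5 lay near the threshold, and their contrasts kept their sign when any 1 array was left out. They then ran from -2.68 to -2.36 for Eif4e3, -2.38 to -2.17 for Capn5, -2.23 to -2.07 for Tiparp, -1.59 to -1.45 for Cry1 and -1.25 to -1.17 for Slc30a4. Eif4e3 was lost without any 1 of 12 arrays (all but germinal center 1 and 3, adjusted p 0.052 to 0.244) and Capn5 of 11 (all but naive 3, plasma 4 and germinal center 1, 0.0669 to 0.237). Tiparp was lost without any 1 of 10 (all but plasma 2, germinal center 1 and 3 and memory 4, 0.0603 to 0.23) and Cry1 of 9 (all but naive 1, plasma 4 and the germinal center arrays, 0.0641 to 0.123). Slc30a4 was lost without plasma 1, 2 or 3 or any germinal center array (0.0515 to 0.0963).

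The bases before the starts of Sdc1 and Itm2a are shown because each held a match to 1 of the 5 motifs, in capitals. Sdc1 lies on the plus strand of GRCm38.p6 (chr12:8771146-8771395) and Itm2a on the minus strand (chrX:107403361-107403610, printed in the direction of the gene).
Sdc1: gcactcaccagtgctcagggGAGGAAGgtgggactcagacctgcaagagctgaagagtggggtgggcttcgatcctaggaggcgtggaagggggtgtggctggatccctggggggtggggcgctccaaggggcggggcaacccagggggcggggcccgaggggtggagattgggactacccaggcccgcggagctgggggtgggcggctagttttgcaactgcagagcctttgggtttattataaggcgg
Itm2a: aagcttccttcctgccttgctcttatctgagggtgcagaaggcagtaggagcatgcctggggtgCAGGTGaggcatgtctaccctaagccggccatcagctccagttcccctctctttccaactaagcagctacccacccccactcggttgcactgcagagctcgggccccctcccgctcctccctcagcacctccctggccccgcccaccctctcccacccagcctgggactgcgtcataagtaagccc
The capitals mark GAGGAAG, a core bound by PU.1, starting 230 bases before the start of Sdc1, and CAGGTG, an E-box bound by E proteins, starting 186 bases before that of Itm2a. RefSeq windows were at hand for 27 of the 34 called genes, 20 windows for the higher and 12 for the lower genes, and both strands of the 250 bases before each start were searched. GAGGAAG was in 10.6% of all 32851 windows, in 0 of 20 of the higher and in those of Sdc1 and Gpr65 among the lower. CAGGTG was in 17.2% of all windows, in those of Abca3, Havcr1 and Pawr among the higher and in that of Itm2a among the lower. TTCNNNGAA, a paired site read by BCL6 and STAT factors, was in 7.02% of all windows, TGANTCA, the core of AP-1 and BACH2 sites, in 6.75%, and the octamer ATGCAAAT in 1.60%. None of these 3 was in a window of a called gene. The matches shown overlap no other motif, and a match or its absence describes these letters only.

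Germinal center and memory cells were not alike on all called genes, as the plot of their difference shows. Over all genes 4084 (22.4%) differed between them at an adjusted p under 0.05. Of the 20 genes called higher, 7 were brighter in germinal center than in memory cells (Lmo7, Pawr, Slc41a2, Stau2, Havcr1, Tmem131 and Vps13a) and 1, Ackr2, was dimmer, by 2.65 ± 0.25 (log2, adjusted p = 2.99e-06, limma). The other 12 did not pass. Their intervals show what the arrays could resolve: the 95% interval of germinal center minus memory was -0.48 to 0.33 for Cd86, -0.48 to 0.62 for Bmpr1a and -0.27 to 0.47 for Sbf2, but -0.64 to 0.80 for Nt5e. Of the 14 called lower, 5 were dimmer in germinal center than in memory cells (Ipcef1, Eif4e3, Tiparp, Gpr65 and Cry1), 0 were brighter and 9 did not pass. The median size of the difference between the 2 subsets was 0.47 on the log2 scale in both directions, beside a median average contrast of 2.90 for the higher and 2.25 for the lower genes. These genes were called on their differences between the sides, so the medians are no independent evidence that the 2 subsets are alike. Plasma cells were dimmer than naive cells on 16.1% of all genes and brighter on 14.2%. They were dimmer for 7 of the 20 higher genes and brighter for 2, and brighter for 7 of the 14 lower genes and dimmer for 1.

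**Figure D2:**
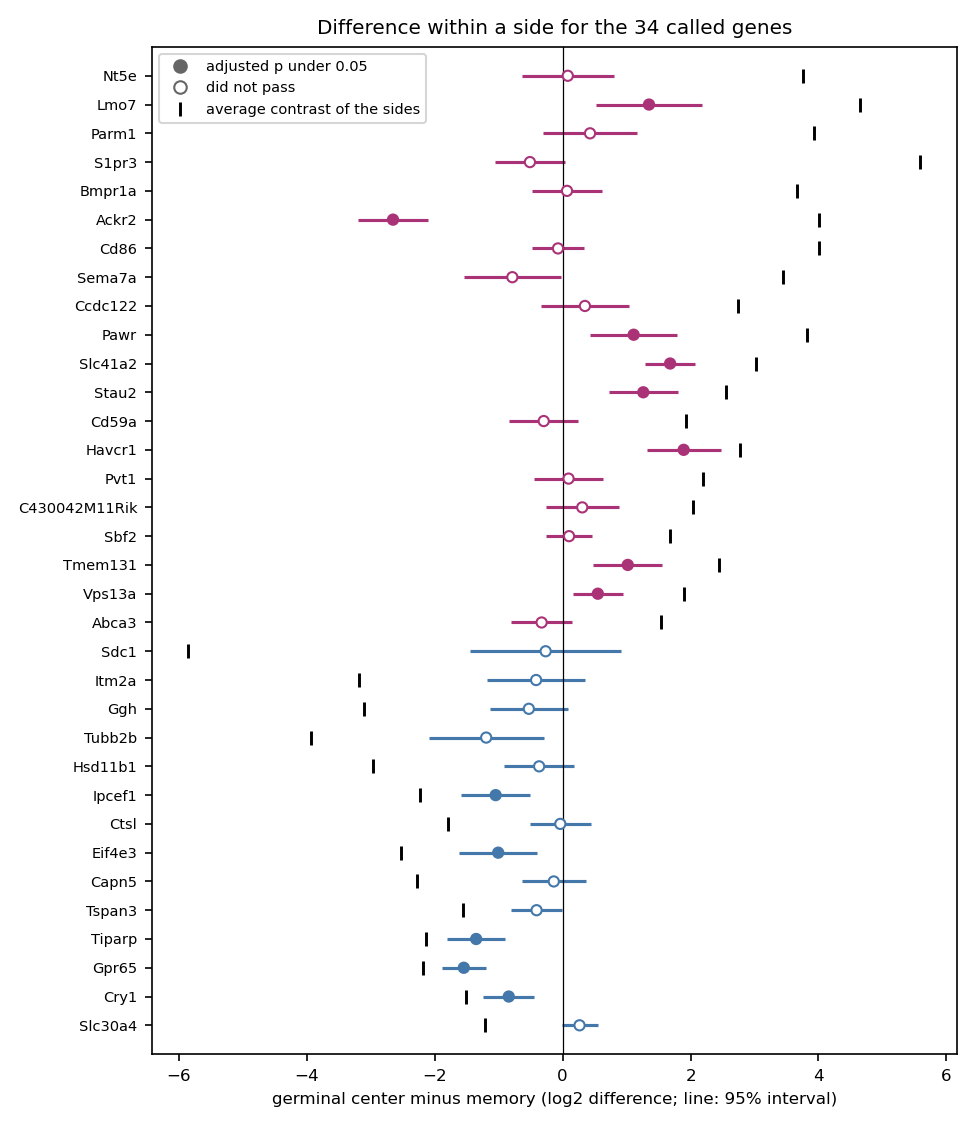
Germinal center minus memory (log2 difference, horizontal axis) for the 34 called genes, with 95% intervals as lines. Filled points passed at an adjusted p under 0.05, open points did not, purple marks genes called higher, blue those called lower, and the black tick is the average contrast of the sides. Ackr2 lies far to the left at -2.65, and Slc41a2 (1.68) and Havcr1 (1.89) lie to the right.

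Several well-known B cell genes did not split the subsets this way, Bcl6 among them. Mki67, a marker of dividing cells, had means of 6850 in germinal center and 5813 in plasma cells against 229 in memory and 14.6 in naive cells. The repressor gene Bach2 read 1808 in germinal center and 983 in naive, 577 in memory and 7.54 in plasma cells. Bcl2, which blocks cell death, read 1406 in memory and 620 in naive but 33.7 in germinal center and 13.2 in plasma cells. Klf2, a quiescence factor gene, read 719 in memory and 799 in naive but 30.0 in germinal center and 40.3 in plasma cells. The homing receptor gene Cxcr5 and the CD23 gene Fcer2a, on which naive cells were gated, were highest in naive cells (1760 and 1682) and lowest in plasma cells (15.8 and 13.5). None of these 7 genes was a member. Irf4, which drives plasma cells, was a member by order and lower, with means of 66.7 in germinal center, 592 in memory, 736 in naive and 3358 in plasma cells. Its smallest difference was only -0.31 and it was not called.

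Antibody genes were brightest in plasma cells. Igha had a mean of 18483 in plasma cells against 16.2 to 246 elsewhere, and Ighg3 10981 against 14.9 to 264. Ighm was bright in all subsets, from 5464 in memory to 19112 in plasma cells. None was a member. Ptprc, which encodes CD45 and its B220 form, lay between 8193 and 11945 outside plasma cells and at 4922 in them.

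Among the gene lists, counts by order of means are set beside the 10.2% higher and 13.7% lower of all genes. Of 24 measured germinal center identity genes 10 were higher members, 0 were lower, 2 were called (Cd86 and Sema7a) and 20 were higher by the average contrast, with a median of 1.72. Several of the 10 differed by little in memory cells. Rgs13, which dampens chemokine receptor signals, had means of 1635 in germinal center but 15.3 in memory, 11.1 in naive and 7.30 in plasma cells, and Gcsam 662 against 9.83, 7.81 and 8.67. Fas, the death receptor gene, did not pass all 4 differences together (adjusted p = 0.361, limma), with 425, 182 and 380 in germinal center, 121, 69.7, 70.4 and 124 in memory, 23.1 to 28.5 in naive and 32.6 to 53.0 in plasma cells. Its 2 sides did not overlap.

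Of 28 memory cell markers 8 were higher members, 1 was lower, and Nt5e, Parm1, Bmpr1a and Ackr2 were called. The average contrast called 14 higher and 1 lower (median 0.36). Fscn1, which bundles actin, read 777, 2398 and 1633 in germinal center and 2539, 1635, 1648 and 1817 in memory cells, against 8.80 to 57.3 in naive and 223 to 477 in plasma cells. Its arrays did not overlap, but the 4 differences did not pass together (adjusted p = 0.294, limma). Zbtb20, a repressor gene, had means of 1219 in memory, 513 in germinal center, 156 in plasma and 57.5 in naive cells (adjusted p = 0.138). These lists were chosen with results of the same arrays known, so their direction is not independent evidence.

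Counts in lists of single pathways stand beside all genes, of which 0.11% were called higher and 0.077% lower. Members by the order of means were 10.2% and 13.7% of all genes. These lists too were chosen with earlier results of these data known. Of 21 semaphorin, plexin and ephrin genes 7 were higher members and 0 lower, with Sema7a called. Some of the 7 were separated by little, with a smallest log2 difference of 0.024 for Plxnd1 and 0.034 for Ephb6. Ephb6 was above background on no array. The semaphorin receptor gene Plxnb2 had means of 365 and 160 in germinal center and memory cells against 34.6 and 62.4 (adjusted p = 0.46, limma), and Sema4f 267 in memory but 17.0 in germinal center cells (0.746). Of 24 chemotaxis and positioning genes 7 were higher and 1 lower, with S1pr3 and Ackr2 called. Here too some higher members were separated by little, such as Rgs16 (0.024) and Ccr2 (0.029). Cxcr4, a receptor that draws cells to the dark zone and bone marrow, was the lower one, with means of 95.1 and 70.6 against 123 and 202 in naive and plasma cells. Of 22 TGF beta and BMP genes 3 were higher and 2 lower, with Bmpr1a called. Id2, an inhibitor of E proteins, had means of 49.5 and 91.7 against 10.9 and 20.7 (adjusted p = 0.26). Of 19 TNF receptor and death genes 3 were higher and 0 were called, and the signal adaptor gene Traf1 had means of 272 and 628 against 105 and 18.8 (adjusted p = 1). Of 15 BCL2 family genes 1 was a member, Bid, which links death receptors to mitochondria, with means of 464 and 439 against 176 and 202 (adjusted p = 0.182). Of 23 switching and mutation genes 4 were higher and 2 lower. Prkdc, the end joining kinase gene, had means of 310 and 312 against 159 and 118 (adjusted p = 0.285). Of 26 chromatin modifiers 5 were higher and 1 lower, and the methyltransferase gene Kmt2d had means of 331 and 597 against 137 and 96.5 (adjusted p = 0.961). Of 35 mitosis genes 0 were members.

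Other lists held more genes by the average contrast, beside 8.81% of all genes higher and 10.3% lower by it. It called 9 of 14 MHC class II genes higher and 1 lower, 9 and 2 of 16 NF-kappa B genes, 10 and 1 of 20 inhibitory receptors and phosphatases, 11 and 2 of 26 B cell receptor signalling genes, 17 and 3 of 40 lineage transcription factors and 13 and 2 of 29 actin genes. It called 8 and 3 of 23 costimulation genes, 3 and 5 of 12 purine genes, 1 and 6 of 27 cytokine receptors, 4 and 9 of 25 adhesion genes and 2 and 9 of 25 quiescence genes. It called 3 and 4 of 15 annexin and S100 genes, 5 and 4 of 19 Toll-like receptor genes and 4 and 3 of 28 immediate early genes.

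Members by the order of means were fewer. Higher and lower members were 4 and 2 of 23 costimulation genes, with Cd86 called, 2 and 1 of 12 purine enzyme and receptor genes, with Nt5e called, and 3 and 1 of 29 actin genes, with Lmo7 called. They were 2 and 1 of 26 B cell receptor signalling genes, 1 and 2 of 20 inhibitory receptors and phosphatases, 1 and 1 of 14 MHC class II genes and 2 and 2 of 27 cytokine receptors. They were 2 and 4 of 25 adhesion genes, 2 and 4 of 15 annexin and S100 genes, 4 and 1 of 40 lineage transcription factors and 3 and 2 of 16 NF-kappa B genes. They were 3 and 3 of 19 Toll-like receptor genes, 4 and 3 of 28 immediate early genes and 1 and 3 of 25 quiescence genes. In these last 11 lists 0 genes were called.

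Of 42 protein secretion genes 28 were lower members and 0 higher, all 42 were lower by the average contrast (median -1.59), and 0 were called by all 4 differences. Ddost, a subunit of the enzyme that glycosylates new proteins, had means of 85.4 and 68.9 in germinal center and memory cells, 138 in naive and 1507 in plasma cells (adjusted p = 0.746, limma). Of 19 plasma cell identity genes 6 were lower members and 18 were lower by the average contrast (median -1.42), with Sdc1 called. Of 29 interferon response genes 4 were lower members (13.8%, near the 13.7% of all genes) and 12 were lower by the average contrast (median -0.39). Ctnna1, which ties cadherins to actin, read 975 and 393 in naive and plasma cells against 74.2 and 61.5 (adjusted p = 0.128), and the Toll-like receptor gene Tlr2 160 and 110 against 13.6 and 60.1 (0.262). Of 22 naive follicular genes 2 were lower members, Lef1 and Cxcr4, and 0 were higher, while the average contrast called 10 higher and 5 lower (median 0.14).

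**Figure D3:**
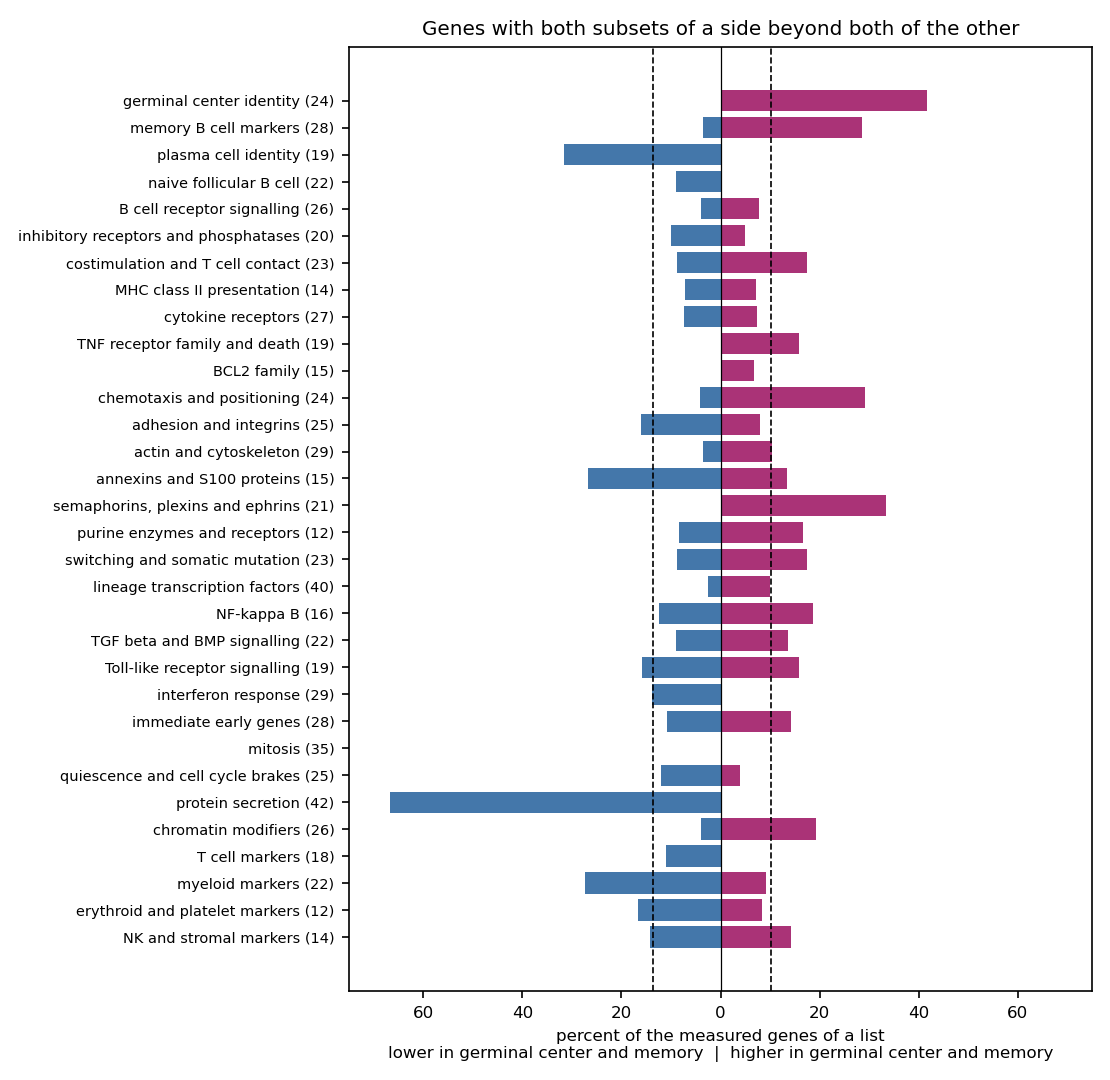
Percent of the measured genes of each list (number in brackets) whose subset means lay higher (purple, right) or lower (blue, left) on both germinal center and memory cells than on both others. Dashed lines mark all genes, 10.2% and 13.7%. Germinal center identity (10 of 24), semaphorins (7 of 21) and chemotaxis (7 of 24) extend furthest right, and protein secretion (28 of 42) furthest left.

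Memory minus naive and germinal center minus plasma share no array, so each can be set beside the other. Memory cells were higher than naive cells on 421 genes (2.31%) and germinal center cells higher than plasma cells on 2298 (12.6%). Both held for 144 genes, 34.2% of the first list and 6.27% of the second, while 81 of the 421 (19.2%) went the other way, beside 11.2% of all genes. In the lower direction memory cells lay below naive cells on 593 genes (3.26%) and germinal center cells below plasma cells on 2033 (11.2%). Both held for 128, 21.6% of the first list and 6.3% of the second, and more of the 593 went the other way, 163 (27.5%), beside 12.6% of all genes.

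Germinal center minus naive and memory minus plasma share no array either. Germinal center cells were higher than naive cells on 1523 genes (8.37%) and memory cells higher than plasma cells on 2904 (16%). Both held for 170, 11.2% of the first list and 5.85% of the second, and 728 (47.8%) went the other way, beside 17.2% of all genes. Germinal center cells were lower than naive cells on 2019 genes (11.1%) and memory cells lower than plasma cells on 3131 (17.2%). Both held for 292, 14.5% of the first list and 9.33% of the second, and 1047 (51.9%) went the other way, beside 16% of all genes. In this pair more genes went the other way than the same way in both directions.

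**Figure D4:**
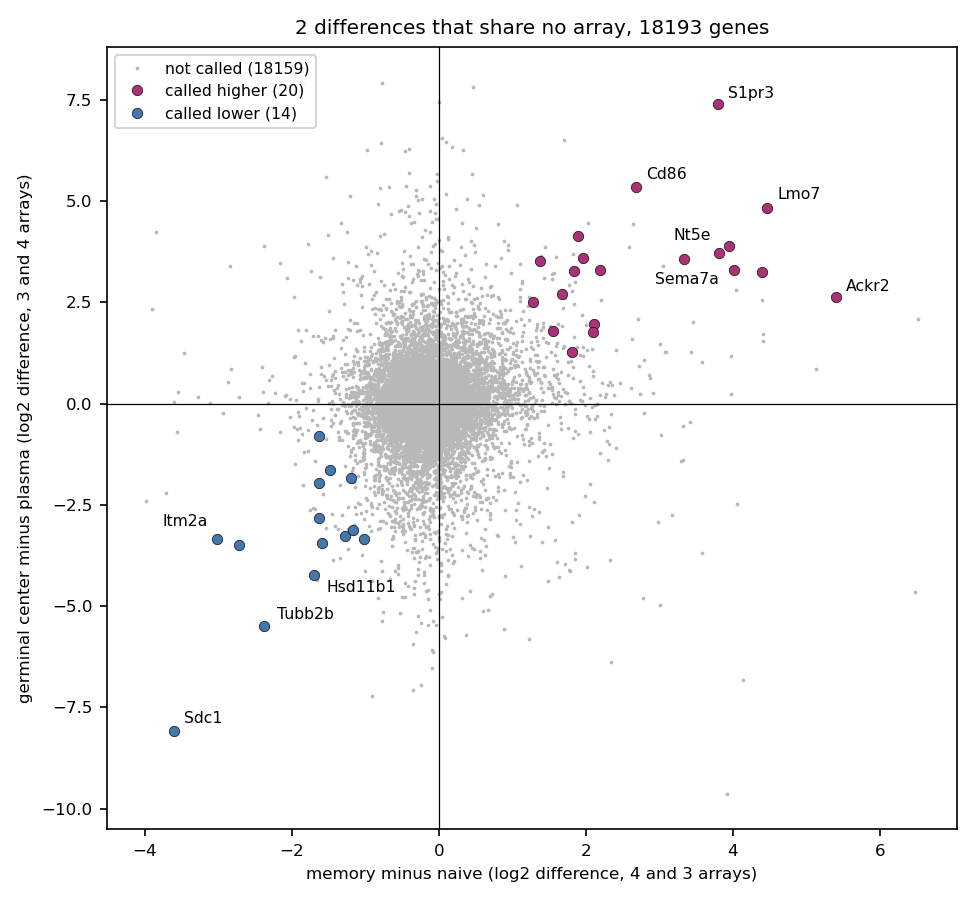
Memory minus naive (horizontal axis) against germinal center minus plasma (vertical axis), both as log2 differences over 18193 genes, from arrays that do not overlap. Grey points are genes not called, purple the 20 called higher and blue the 14 called lower. Among the called genes S1pr3 lies highest (7.39) and Ackr2 furthest right (5.40), and Sdc1 lies lowest (-8.10) and furthest left (-3.61).

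Of the 34 called genes 23 had more than 1 probe set. Of their 45 other probe sets 23 lay above background in a subset, 16 of those had the same order of means, and 19 passed the average contrast in the same direction with 0 in the other. With the mean over the probe sets of a gene 6 of the 34 were not called: Abca3, Capn5, Ctsl, Pvt1, Sbf2 and Tiparp. Scaling moved the balance of directions: with arrays centred on bright genes, those with a mean log2 of at least 6, 2042 members were higher and 1263 lower, and 29 and 12 genes were called. With arrays centred on their median over all genes 1617 members were higher and 3140 lower, and 18 and 13 genes were called. Quantile normalization gave 25 and 11 calls. Over 6116 bright genes the median average contrast was -0.05 on the log2 scale, the median difference from naive cells -0.20 in germinal center and -0.21 in memory cells, and that from plasma cells 0.10 and 0.08.

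Among markers of other cell types, the summed signal for T cells differed between the sides, but few single T cell markers were members. The summed intensity of 18 measured T cell markers was 810 to 1112 in naive and 1053 to 1352 in plasma cells. It was 364 to 448 in germinal center and 538 to 659 in memory cells. Of the 18, 2 were lower members (11.1%, beside 13.7% of all genes) and 0 higher. The median average contrast of the list was -0.01. Such a sum can be set by a few bright probe sets. Of the defining markers, Cd3d rose above background on 1 plasma array only. Cd3e, which read 18.5 to 43.4 over the 14 arrays, and Cd4 lay above background on every array. Of 22 myeloid markers 2 were higher and 6 lower members. Their sums were 2518 to 2610 in naive and 784 to 1429 in plasma cells. In germinal center and memory cells they were 1330 to 2012 and 2662 to 3044. Itgam, the gene of CD11b, lay above background on 0 arrays, but Csf1r and Adgre1 did on every array. Adgre1, a lower member, read 45.1 to 62.4 in naive and 18.5 to 38.1 in plasma cells. In germinal center and memory cells it read 17.8 to 21.7 and 23.3 to 29.6. Lyz2 read 15.2 to 93.1 in plasma cells, above background on every plasma array. Of 12 erythroid and platelet markers 1 was higher and 2 lower, and of 14 NK and stromal markers 2 and 2. Sums were 933 to 1273 in germinal center against 144 to 231 elsewhere for the former, and 150 to 194 over all arrays for the latter. The part of such cells in the called genes was not tested.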

How the data were processed

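Gene expression was measured on 14 Affymetrix arrays of 4 sorted subsets. The deposited table gives 1 intensity per probe set and array on a linear scale, and the submitters' processing notes name RMA, with no version. RMA adjusts background, normalizes between arrays and sums probes, so levels compare between arrays for 1 probe set, not between probe sets. Log2 was taken with no offset. Of 45101 probe sets, 34945 carried a single symbol, and each of 18193 genes was taken from its brightest probe set (9010 genes had several).

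Models with 1 mean per subset were fitted with limma 3.58.1 (R 4.3.3) on all arrays, with 10 residual degrees of freedom. Tests were two-sided and adjusted by Benjamini-Hochberg over 18193 genes. They were also run on simulated data. The results of that run are not given here, so no rate of false calls is drawn from it. The number of arrays limits the precision. Where the dimmer subset lay above background on no array, its fold is a bound, "at least N-fold", computed against the array background. Such bounds use, for each array, the higher of background and the probe set's own value.

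Genes named were the called genes without array overlap, ranked by their smallest difference, up to 15 per direction, then up to 4 members per list, a fixed set of B cell regulators, and, chosen after their values were seen, the other called genes and further members of lists. The members, the 32 lists and the rules were chosen with earlier results of these data known. Promoter windows came from RefSeq (GRCm38.p6), and no genome was used. Genes without a single-symbol probe set were not analysed here. Alternatives covered scaling, floors, filters, probe sets, variance models, the actin ratio, a replicate block and leaving out each array. Figures were made in Python 3.11.15 (pandas 2.3.3, matplotlib 3.10.9).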

Additional observations from a re-analysis of the deposited data

Results flagged for a closer look

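In 9 of 128 groups of 4 arrays of a named gene, 1 array stood apart from the other 3 by Dixon's criterion, which chance meets in about 1 in 20 groups. Among the called genes these were S1pr3 on memory array 2 (4347.4, others 2006.5 to 2162.4), Sdc1 on memory array 4 (49.9, others 6.4 to 7.9), Hsd11b1 on memory array 1 (43.9, others 69.3 to 73.1), Capn5 on plasma array 4 (430.4, others 235.9 to 261.0) and Ctsl on plasma array 4 (37.2, others 61.7 to 63.6). Among the others they were Plxnb2 on memory array 3 (213.1, others 140.7 to 149.5), Tlr2 on memory array 1 (39.2, others 65.7 to 72.0), Prkdc on plasma array 2 (155.8, others 104.4 to 110.8) and Ighm on plasma array 2 (14593.9, others 20395.5 to 21776.1).

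Germinal center and memory cells differed from each other on 13 of the 34 called genes (limma, germinal center minus memory, log2). Higher called genes had 1.35 for Lmo7, 1.11 for Pawr, 1.68 for Slc41a2, 1.26 for Stau2, 1.89 for Havcr1, 1.02 for Tmem131, 0.55 for Vps13a and -2.65 for Ackr2. Lower called genes had -1.05 for Ipcef1, -1.01 for Eif4e3, -1.35 for Tiparp, -1.55 for Gpr65 and -0.84 for Cry1. The adjusted p-values ran from 2.99e-06 for Ackr2 to 0.0422 for Vps13a (limma).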

How the results depend on the processing

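The 20 higher and 14 lower calls became 12 and 8 with a floor of 16, 10 and 1 when the fit held the actin ratio, and 70 and 64 with each difference called on its own, which was chosen after the data were seen. Leaving out 1 array gave 17 to 26 higher and 7 to 14 lower calls, and 16 of the 34 genes were lost without some array. With every probe set on its own the average contrast called 2569 higher and 3047 lower, over more features. The replicate block gave 18 and 10 calls. Deviations of each gene from its subset mean were correlated between arrays of different subsets. The correlations were -0.22 to 0.25 over 19 pairs with the same replicate number and -0.29 to 0.31 over 54 pairs with other numbers. The labels do not say whether arrays with the same number were processed together, and these overlapping ranges cannot decide it. Ighg3 turned from -1.34 to 0.81 (log2, average contrast) with the mean over its probe sets; the cause was not tested. Of the 34 called genes, 20 were shared with the floor, 11 with the actin covariate and 25 with the replicate block. The number of arrays and signals near background limit the dim genes.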
